A study of Rattus norvegicus with 4 samples.

Results

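Prkx, the gene of a cAMP-dependent protein kinase catalytic subunit, had a 2.30-fold higher probe set signal in rat cortical neurons that carried an shRNA against PHF6 than in neurons with a control shRNA, against 1.01-fold for Prkaca and 0.871-fold for Prkacb, the classical catalytic subunit genes. Most other genes of protein kinase A (PKA) read slightly lower, led by the regulatory subunit gene Prkar2b, which was 1.39-fold lower. Lower means were found for 7 of the 8 measured, including Pkib at -0.01 log2 units. They were also found for 60.2% of genes above background on every array. None of the 8 passed an adjusted p of 0.05 in limma. The gene set comprised 10 genes, namely Prkx, the catalytic subunits Prkaca and Prkacb, the regulatory subunits Prkar1a, Prkar1b, Prkar2a and Prkar2b, and the PKA inhibitors Pkia, Pkib and Pkig. A gene was measured where a probe set was annotated to it alone, and the brighter probe set was taken where a gene had several. This gave 9 genes of the 17245 named on the arrays. Prkar1a was not analysed here. Prkx was chosen because of its difference between these same arrays, so its values are a description with no test, and the other 9 genes were chosen as its family by function.

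PKA is held inactive as a complex of a dimer of regulatory subunits with a pair of catalytic subunits. Cyclic AMP binds the regulatory subunits and frees the catalytic subunits, which phosphorylate ion channels, synaptic proteins and the transcription factor CREB. In neurons the type II regulatory subunits tether the kinase to dendrites and synapses through A-kinase anchoring proteins. The small PKI proteins bind free catalytic subunits, block them and carry them out of the nucleus. Prkx encodes a separate catalytic subunit of the same kinase group that is also released by cAMP and is known to pair with type I rather than type II regulatory subunits.

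RNA came from primary cortical neurons of Sprague Dawley rats taken at embryonic day 18, cultured under standard conditions and infected with pLL3.7, a lentivirus that expresses a short hairpin RNA (shRNA). The virus carried a control shRNA on 2 arrays (labelled wild type) and PHF6shRNA-2 on 2 arrays (labelled PHF6 knockdown), and both groups were collected on day 5 of infection. PHF6 is a nuclear zinc finger protein that is mutated in an X-linked form of intellectual disability. Both PHF6 arrays carry the same shRNA, so an effect of PHF6 loss and another effect of that shRNA cannot be told apart. The labels call the arrays biological duplicates without saying whether they came from separate cultures. Every SD given here is therefore the spread between these arrays, and their number limits the precision. Values after ± are limma standard errors (SE) unless marked SD, and draw on the variance of all genes as well as on this spread.

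Values are normalised probe set intensities on a linear scale, and log2 was taken for differences. The median intensity of an array lay between 40.9 and 41.7, and a background level, taken from 206 olfactory and vomeronasal receptor genes (their 95th percentile), between 32.5 and 41.1. Phf6 itself read 32.8 and 34.3 with control shRNA and 34.4 and 31.3 with PHF6 shRNA, above background on 1 of the 4 arrays, so it cannot serve as a check of the labels. All 7 neuron markers (Tubb3, Map2, Rbfox3, Snap25, Syt1, Stmn2 and Nefl) were above background on every array. Of the markers of other cells, none of 4 endothelial genes exceeded background on any array, 5 of 6 microglial genes exceeded it on none, 5 of 7 oligodendrocyte lineage genes exceeded it on at least 2 arrays, and so did all 6 astrocyte genes. Summed neuron marker intensity ran from 10055 to 10241 in the control arrays and from 9125 to 9270 in the PHF6 shRNA arrays. Of the 7 neuron markers, 6 had lower means with the PHF6 shRNA, as did 60.2% of all genes above background on every array. The median difference of the markers was -0.10 log2 units, against -0.05 over those genes. Nefl, a neurofilament gene, had the largest difference of the 7, at -0.65 ± 0.21, while Map2 differed by 0.05 and Rbfox3 by -0.04. Summed astrocyte marker intensity ran from 542 to 1046 in the control arrays and from 757 to 1256 in the PHF6 shRNA arrays. In both groups duplicate 2 read higher than duplicate 1 for all 6 astrocyte markers. Slc1a3 was higher on duplicate 2 by 1.29 (control) and 1.26 (PHF6 shRNA) log2 units, against 0.12 between the groups. All 6 astrocyte markers had higher means with the PHF6 shRNA, by a median of 0.13, led by the glutamate transporter gene Slc1a2, which read 139.9 and 210.1 against 318 and 357 (0.98 ± 0.20), while Gfap differed by 0.01. The groups overlapped for the other 5. In such bulk RNA, fewer cells of a type and less RNA per cell cannot be told apart, and the part of these marker shifts in the differences below was not tested.

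Prkx read 216 and 225 with the control shRNA and 555 and 461 with the PHF6 shRNA. Both PHF6 shRNA arrays stood above both control arrays, and all 4 were well above background. The mean was 8.98 ± 0.19 log2 units with the PHF6 shRNA and 7.78 ± 0.04 with the control shRNA (SD, n = 2 each), a difference of 1.20 ± 0.12 (limma SE) with a 95% interval from 0.91 to 1.49. The control arrays were nearly equal, 0.06 log2 units apart, and the PHF6 shRNA arrays differed by 0.27, less than the group difference. Prkx had the 11th largest increase of all 17245 genes, and it was among 19 genes (0.110%) at least 2-fold higher without overlap of the groups. Leaving out each array in turn left a difference between 1.07 and 1.33. Prkx was chosen for this difference, so its interval, rank and range describe the choice and test nothing.

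**Figure D1:**
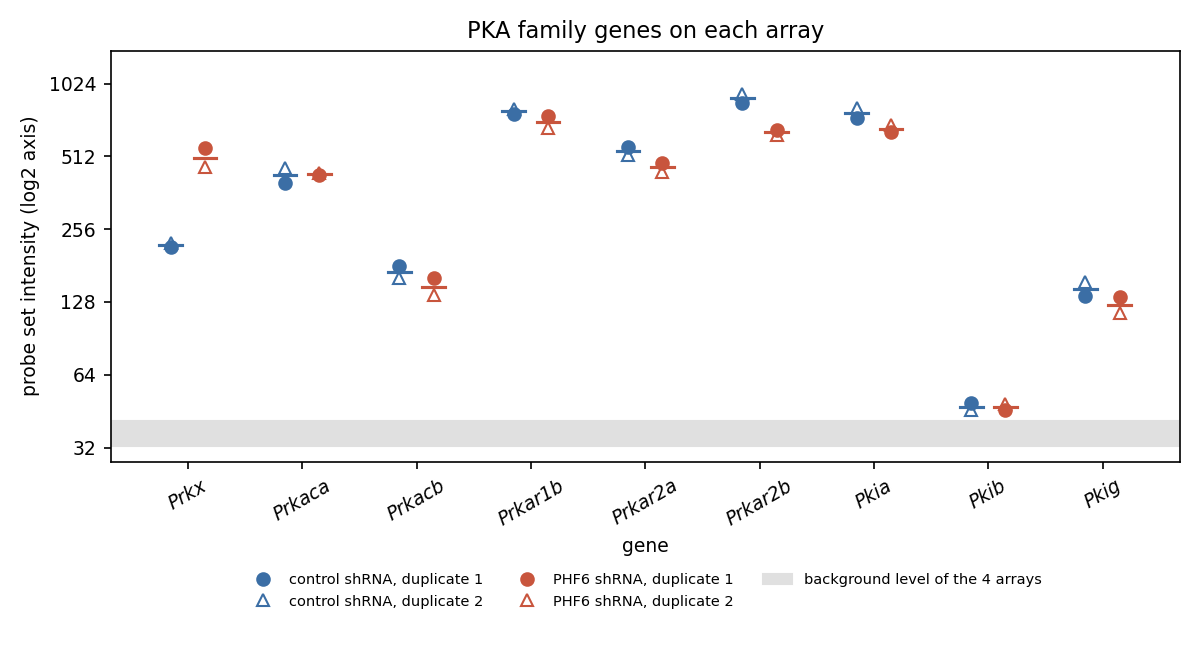
Probe set intensity (log2 axis) of the 9 measured genes on each array, with control shRNA in blue and PHF6 shRNA in red, duplicate 1 as filled circles and duplicate 2 as open triangles, horizontal lines at the mean of the log2 values and the background levels of the 4 arrays as a grey band. Prkx moves from 216 and 225 to 555 and 461, while the points of Prkaca interleave, and Pkib lies just above the band. Levels of different genes come from different probe sets and are not comparable.

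Prkaca and Prkacb encode the classical catalytic subunits, C-alpha and C-beta, that share the cAMP-released kinase activity with Prkx. Prkaca read 399 and 457 (control) against 427 and 438 (PHF6 shRNA), so that both PHF6 shRNA values lay between the control values. Its difference was 0.02 ± 0.10 log2 units, with an interval from -0.23 to 0.27. Prkacb read 180.3 and 160.1 against 160.3 and 137, a difference of -0.20 ± 0.12 with an interval from -0.49 to 0.10. Its groups overlapped, by the narrow margin of the dimmer control array and the brighter PHF6 shRNA array. Both intervals include 0. The difference between Prkx and these genes was not tested, because Prkx was selected for its own.

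Sequences upstream of start sites were taken from RefSeq (GRCr8), which held windows for 8 of the 10 genes. They are shown for Prkx and for Prkaca, the catalytic subunit genes with the highest and the next highest difference. Only bases upstream of every annotated transcript are printed, on the minus strand from 5′ to 3′, with CRE cores (TGACG) and GC boxes (GGGCGG) on either strand in capitals.
Prkx, chrX:45745211-45745316: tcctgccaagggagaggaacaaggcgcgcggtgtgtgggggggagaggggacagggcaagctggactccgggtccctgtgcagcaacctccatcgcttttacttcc
Prkaca, chr19:41083190-41083439: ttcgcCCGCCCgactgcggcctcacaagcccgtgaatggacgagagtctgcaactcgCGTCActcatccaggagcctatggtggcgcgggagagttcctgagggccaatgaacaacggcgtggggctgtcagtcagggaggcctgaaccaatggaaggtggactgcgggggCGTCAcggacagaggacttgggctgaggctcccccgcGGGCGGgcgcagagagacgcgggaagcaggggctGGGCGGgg
All 250 bases of the window are printed for Prkaca, but for Prkx only the 106 bases farthest from the start site. The stretches therefore do not cover the same distances from the start. The printed Prkx stretch holds neither motif. In the full window of 250 bases before its RefSeq start site, part of which lies inside the annotated span of the gene, Prkx has 1 CRE core at 26 bases and 1 GC box at 59 bases before the start. Prkaca has 2 CRE cores and 3 GC boxes in its window, and Prkacb has 2 GC boxes and no CRE core. The full cAMP response element TGACGTCA, which contains the core and was searched on both strands, was in none of the 11 windows of these genes and in 1.59% of all 33469 windows of that length. The CRE core was in 18.2% of all windows and the GC box in 30.5%. The windows of Prkx, Prkaca and Prkacb were 65.2%, 67.6% and 68% G or C, against a median of 51.2% over all windows. These shares are therefore not matched for base composition. A match describes the letters of a window and is not a site of binding.

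The regulatory subunits, which bind cAMP and hold the catalytic subunits, had lower mean values with the PHF6 shRNA in all 3 genes measured. Prkar2b encodes RII-beta, a main regulatory subunit of neurons that anchors PKA in dendrites. It read 852 and 930.4 (control) against 658 and 627 (PHF6 shRNA), with no overlap and a gap larger than the spread of either pair. Its difference of -0.47 ± 0.09 log2 units had an interval from -0.70 to -0.24, and it ranked 271st among the decreases of all genes. Prkar2a, which encodes the related RII-alpha, read 558 and 519 against 481 and 443, also without overlap. Its difference was -0.22 ± 0.09, with an interval from -0.45 to 0.01 that takes in 0. Prkar1b encodes RI-beta, a type I subunit found mainly in brain. It read 769.8 and 807 against 750.5 and 669, without overlap but with a gap between the groups smaller than the spread of either pair, and a difference of -0.15 ± 0.10 (interval -0.40 to 0.09).

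The PKI inhibitor genes differed by at most 0.22 log2 units in the probe sets used. Pkia read 738 and 813 (control) against 647 and 688 (PHF6 shRNA), without overlap, a difference of -0.21 ± 0.09 log2 units (interval -0.45 to 0.02). Pkig, which encodes the gamma form, read 136 and 155 against 134 and 115, and its groups were separated by less than the spread within either of them. Its difference was -0.22 ± 0.12 (interval -0.52 to 0.08). Pkib, the beta form, read 49.0 and 45.8 against 45.6 and 48.6, near background, and its arrays were interleaved, with a difference of -0.01 ± 0.09. It was the only gene of the 9 with a second probe set. That one read 33.8 and 29.6 (control) against 45.0 and 34.6 (PHF6 shRNA), a difference of 0.32, but exceeded background on 2 of the 4 arrays.

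**Figure D2:**
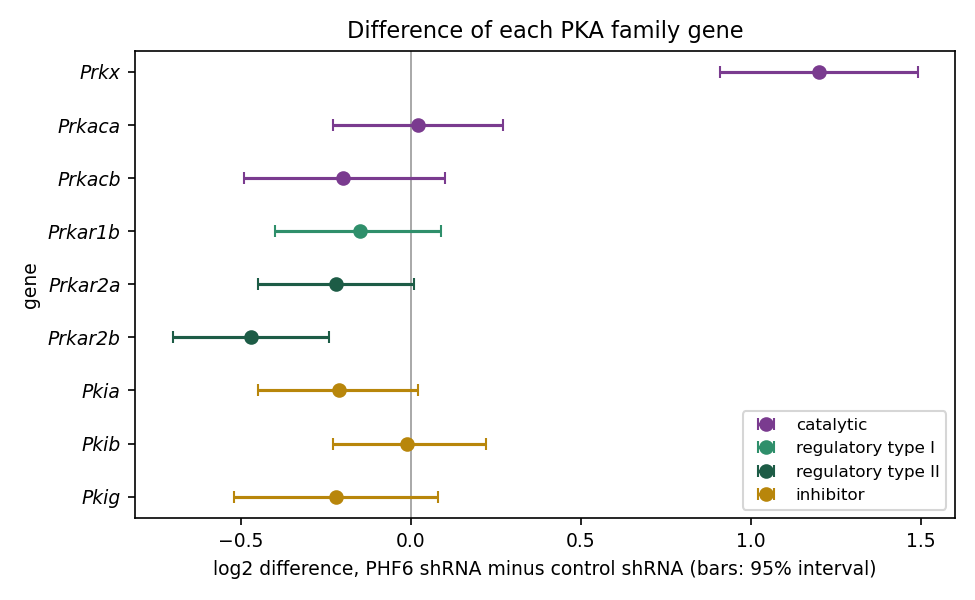
Difference in log2 intensity between PHF6 shRNA and control shRNA for each of the 9 genes (horizontal axis, points) with limma's 95% interval (bars), coloured by role. The interval of Prkar2b, -0.70 to -0.24, excludes 0, and those of the other 7 genes besides Prkx include it. Prkx was chosen for its difference, so its interval, 0.91 to 1.49, is a description and no test.

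Across the 9 genes, Prkx and Prkaca had higher means with the PHF6 shRNA and 7 had lower means, under the reported scaling and under each of 3 others. The 8 genes other than Prkx had a median difference of -0.21 log2 units, against -0.01 over all genes and -0.05 over the 9536 genes above background on every array. This median was -0.13 under cyclic loess and -0.14 after a further quantile normalization, where genes above background had medians of 0.01 and -0.01. It was -0.10 without PHF6 shRNA duplicate 2 and -0.14 without control duplicate 2. Lower means were found for 7 of these 8, against 52.3% of all genes and 60.2% of those above background. The groups did not overlap for 6 of the 9 genes, where 37.8% of all genes and 45.9% of those above background did not overlap. Prkx is 1 of these 6 by its selection, so nothing is read from the count. For any single gene, 2 against 2 arrays allow no two-sided exact p smaller than 0.333. By limma, adjusted over all genes with the Benjamini-Hochberg method, 0 of the 8 genes other than Prkx passed 0.05, as did 0.00% of all genes tested. At an unadjusted p under 0.05, 1 of the 8 genes other than Prkx passed, Prkar2b, against 10.8% of all genes and 1712 of the 9536 above background, so the share is near the background. The number of genes passing the adjusted threshold was 90 when PHF6 shRNA duplicate 2 was left out, 2 when PHF6 shRNA duplicate 1 was, and 0 without either control array.

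**Figure D3:**
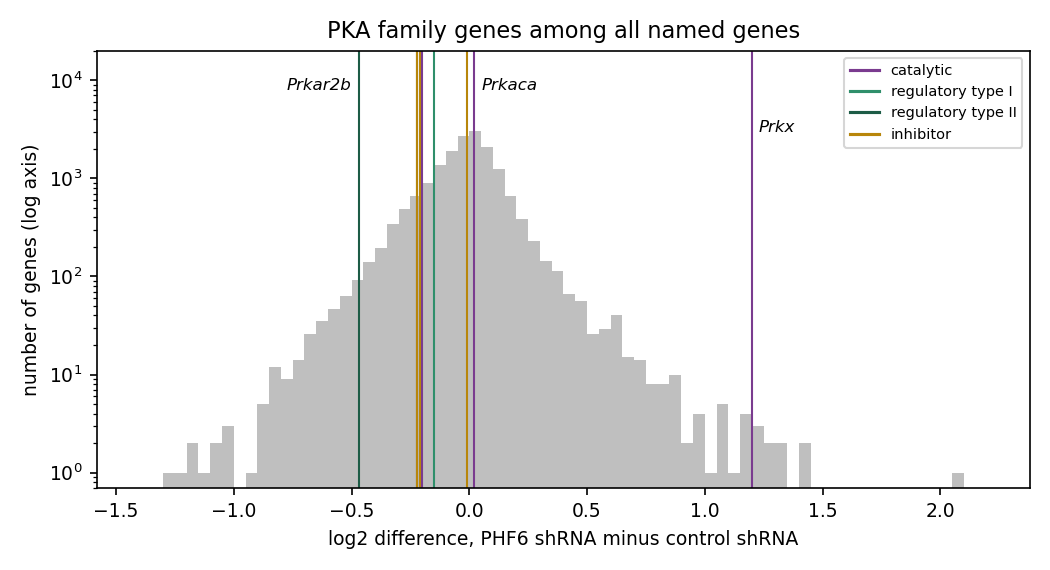
Histogram of the log2 difference between PHF6 shRNA and control shRNA over all 17245 genes (grey; number of genes on a log axis), with a vertical line for each of the 9 genes coloured by role. Prkx at 1.20 lies in the thin right tail, Prkar2b at -0.47 on the left flank, and the other 7 between -0.22 and 0.02.

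The genes whose pattern over the 4 arrays was most like that of Prkx were found by the Euclidean distance between log2 intensities centred on each gene's mean, searched over 16938 genes. Klhl4, a kelch-like gene, was nearest at 0.19 log2 units, reading 64.5 and 77.7 with control shRNA against 162 and 139. Myof, a ferlin of membrane repair, followed at 0.24, and Chml, a Rab escort protein gene, at 0.25. Opn3, an opsin, was at 0.26 and Gpd1l1 at 0.28. All 5 were higher on both PHF6 shRNA arrays, with differences between 0.97 and 1.31, which follows from the search for a profile like that of Prkx. The annotated spans of Opn3 and Chml overlap in RefSeq, so these 2 signals may not be separate. Within the PKA genes the nearest was Prkaca at 1.20 and the farthest Prkar2b at 1.68. The 5 genes named are closer because the search picked the nearest. With 4 arrays this likeness is a description.

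**Figure D4:**
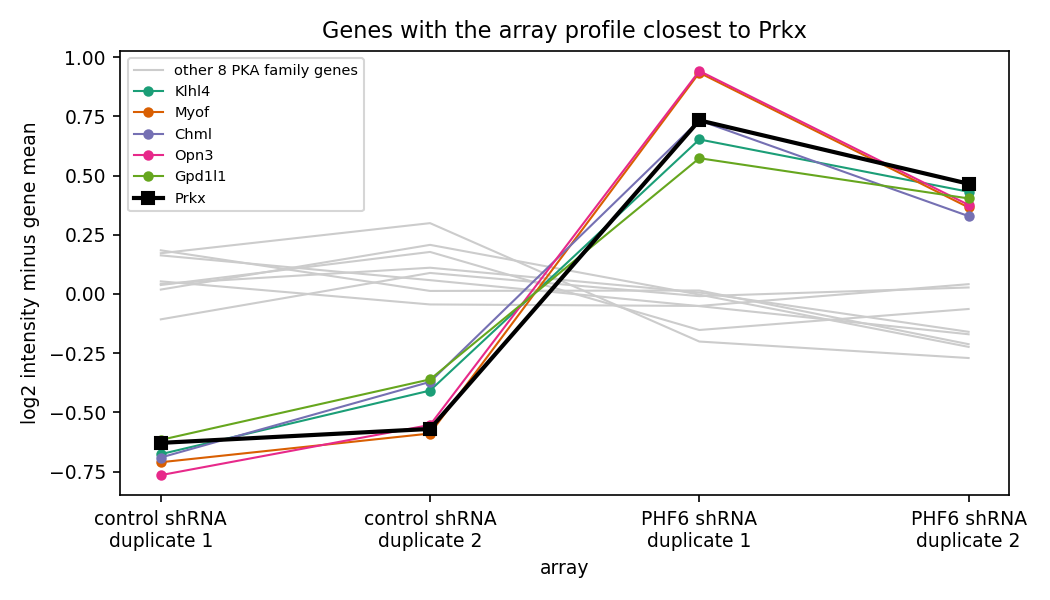
Log2 intensity minus the gene's mean (vertical axis) on the 4 arrays for Prkx (black), its 5 nearest genes (colours) and the other 8 PKA genes (grey); lines join the points of a gene and imply no order of the arrays. The 5 nearest genes lie within 0.28 log2 units of Prkx in distance, and the grey lines stay near 0.

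Among the genes that make cAMP, upstream of PKA, adenylyl cyclases had 3 higher and 6 lower means of 9 measured, with a median difference of -0.09 log2 units. None of the 9 passed the adjusted threshold, and 0 had an unadjusted p under 0.05. The calcium-stimulated Adcy1 read 578 and 591 against 516 and 519.5 (-0.17 ± 0.08), and Adcy3 and Adcy5 differed by -0.22 ± 0.11 and -0.14 ± 0.10. Of 12 G protein subunit genes, 6 were higher and 6 lower, with a median of -0.01, and 5 had an unadjusted p under 0.05 (10.8% of all genes and 1712 of 9536 above background did) but none passed after adjustment. The inhibitory alpha subunits went opposite ways. Gnai2 read 815 and 1035 against 1146 and 1244 (0.38 ± 0.14), while Gnai3 differed by -0.25 ± 0.09 and Gnaz by -0.32 ± 0.10. The beta subunit genes Gnb5 and Gnb2 differed by -0.26 ± 0.08 and -0.23 ± 0.08. Gnas, which encodes the stimulatory alpha subunit and was added here after its values were seen, was at 4.28 and 4.26 log2 units, below background on all 4 arrays, and says nothing about that subunit.

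Phosphodiesterases end the cAMP signal. All 16 listed genes were measured, 10 higher and 6 lower, with a median of 0.04 log2 units. Pde1b, a calmodulin-activated enzyme that also cleaves cGMP, read 62.6 and 65.1 (control) against 85.6 and 83.7 (PHF6 shRNA) (0.41 ± 0.08). Pde4d, a cAMP-specific enzyme bound to PKA anchoring complexes, read 408 and 409 against 317 and 307 (-0.39 ± 0.08). Both had little spread within a group and no overlap, in opposite directions. Pde7a differed by 0.40 ± 0.15. These 3 had an unadjusted p under 0.05, beside the same 10.8% of all genes and 1712 of 9536 above background, and none of the 16 passed after adjustment.

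Of 17 A-kinase anchoring protein genes, which hold PKA at its substrates through the regulatory subunits, 8 were higher and 9 lower, with a median of -0.04 log2 units. Akap5, the postsynaptic anchor of PKA, read 28.7 and 33.8 against 50.1 and 37.1 (0.47 ± 0.17), with control duplicate 1 below background, so that its fold is not exact. Akap8, a nuclear anchor, differed by -0.23 ± 0.08 and Akap12 by -0.14 ± 0.10. The first 2 of these had an unadjusted p under 0.05, a share close to the 10.8% of all genes, and none of the 17 passed after adjustment. Map2, the dendritic microtubule protein that binds RII subunits, read 1280.1 and 1428 against 1403 and 1405.

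**Figure D5:**
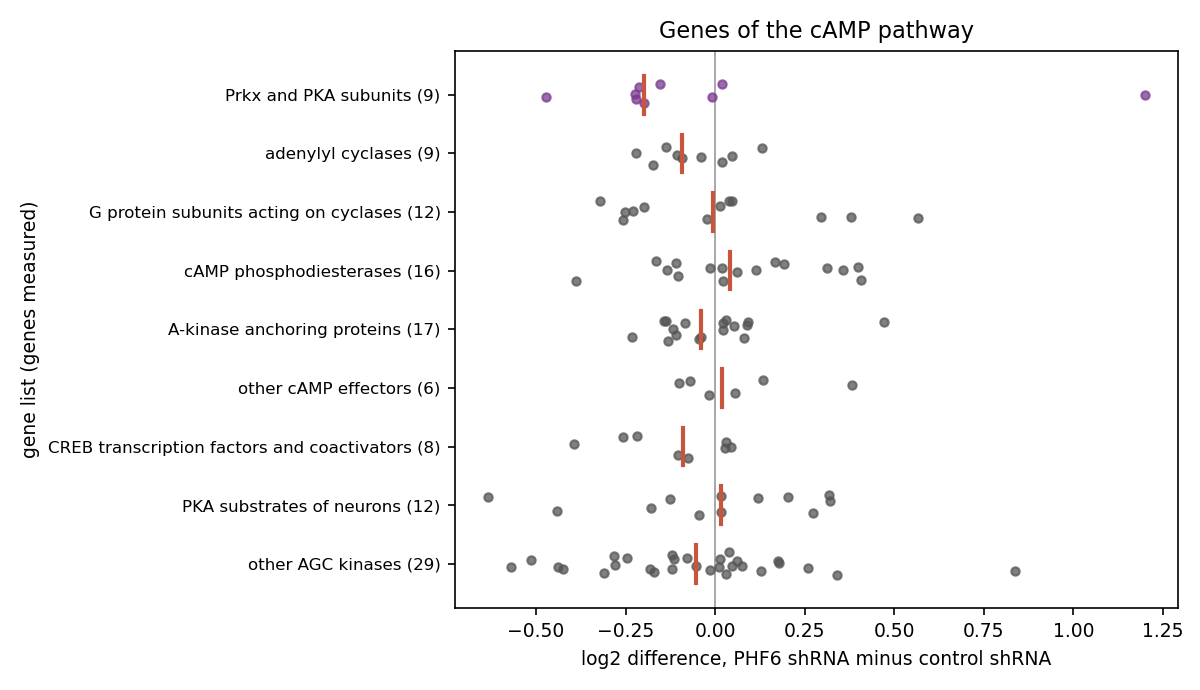
Log2 difference between PHF6 shRNA and control shRNA (horizontal axis) for each measured gene of the PKA set (purple) and of 8 pathway lists (grey), with the number measured in brackets and the list median as a red bar; vertical scatter within a list has no meaning. List medians lie between -0.09 and 0.04 for the pathway lists. Prkx at 1.20, chosen for its difference, lies to the right of every other gene shown.

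Downstream of cAMP, 6 other effector genes had a median of 0.02 log2 units. The cyclic nucleotide-gated channel gene Hcn4 read 94.5 and 121 against 132 and 146 (0.38 ± 0.14), while the exchange factors Rapgef3 and Rapgef4 differed by -0.10 ± 0.10 and 0.13 ± 0.17 with overlapping groups. The 8 genes of CREB and its coactivators had 3 higher and 5 lower means and a median of -0.09, against -0.05 over genes above background. This list median was -0.04 under cyclic loess and after a further quantile normalization. It ran from -0.14 to -0.04 when arrays were left out in turn. Crtc1, a coactivator that enters the nucleus on cAMP and calcium signals, read 443 and 452 against 289 and 401 (-0.39 ± 0.16), the acetyltransferase gene Crebbp differed by -0.26 ± 0.11, and Creb1 by -0.22 ± 0.10. Of all 14 genes, only Hcn4 had an unadjusted p under 0.05, where 10.8% of all genes did, and none passed after adjustment.

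Genes of neuronal PKA substrates were split, 7 higher and 5 lower of 12, with a median of 0.02 log2 units. Stmn1, the microtubule regulator stathmin, read 2727 and 3112 (control) against 1726 and 2043 (PHF6 shRNA) (-0.63 ± 0.12). Ensa, a phosphatase inhibitor, differed by -0.44 ± 0.15. Arpp21 read 724 and 807 against 972 and 937 (0.32 ± 0.09), the phosphatase inhibitor gene Ppp1r1a differed by 0.32 ± 0.10, and the calcium channel gene Cacna1c by 0.27 ± 0.10. These 5 had an unadjusted p under 0.05, against 10.8% of all genes and 1712 of 9536 above background, and none of the 12 passed after adjustment. The groups did not overlap for 8 of the 12, against 37.8% and 45.9%. Over the 7 lists of the cAMP pathway, 80 of 86 genes were measured, 40 were higher and 40 lower, and 16 had an unadjusted p under 0.05, near the share of genes above background (1712 of 9536).

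PKA belongs to the AGC group of kinases, and 29 of 34 other listed members were measured. Together with Prkx, Prkaca and Prkacb they made 32 kinases. Prkx, which was chosen for its difference, had the highest of them, and Prkca the next, at 0.84 ± 0.10 log2 units. Prkca, the conventional protein kinase C alpha, read 168 and 189 (control) against 325 and 313 (PHF6 shRNA). The lowest was Rps6ka2, a ribosomal S6 kinase, at -0.57 ± 0.11, followed by Akt2 at -0.51 ± 0.10. The atypical Prkcz and Prkci differed by -0.44 ± 0.10 and -0.31 ± 0.12, Prkce by -0.42 ± 0.10, Rps6kb2 by -0.28 ± 0.08 and Akt1 by -0.25 ± 0.09. Prkcd differed by 0.34 ± 0.09, with control duplicate 1 below background. Of the 29 genes, 13 were higher and 16 lower, with a median of -0.05, and 9 had an unadjusted p under 0.05, against 10.8% of all genes and 1712 of 9536 above background, but none passed after adjustment. The cGMP-dependent kinase genes nearest to PKA, Prkg1 and Prkg2, differed by 0.26 and 0.01.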

How the data were processed

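Per the labels' protocols, Trizol-extracted RNA was made into biotin-labelled sense-strand target for Affymetrix whole-transcript arrays, 1 per sample. The deposited values are probe set intensities that the authors made with RMA, per the submitters' processing notes; for these steps, version and genome build are not given in the sources used. The deposited intensities are linear (8.57 to 6121), so log2 was taken. RMA compresses differences of dim probe sets.

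Of 29214 probe sets, 18644 carry 1 gene symbol, 962 several and 9608 none in the annotation used; only the first were named, updated by gene identifier to RefSeq symbols (GRCr8) for 18460. The probe set with the highest mean was used for each of 17245 genes. Groups came from sample titles. Differences are PHF6 shRNA minus control shRNA, fitted with limma 3.58.1 in R 4.3.3 (lmFit, eBayes, 2-sided, no covariate, no filter, prior of 3.46 degrees of freedom), adjusted by Benjamini-Hochberg over all genes at 0.05, after testing the script on simulated data. The genes and lists were chosen with earlier results of these data known. Named are all PKA genes, the 5 genes nearest to Prkx (leaving out placeholder, olfactory, vomeronasal and microRNA symbols), and per list the 3 smallest p and any unadjusted p under 0.05. Prkg1, Prkg2, Map2, Gnas, Gnal, Pde1a and single markers were added after their values were seen. Alternatives were a replicate block, leaving out arrays, 3 scalings, 2 filters, a variance trend, the mean of probe sets, an offset of 16, array weights and an adjusted p under 0.1.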

Additional observations from a re-analysis of the deposited data

How the results depend on the processing

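No label states that the duplicate numbers pair the arrays; over genes, duplicate 1 minus duplicate 2 correlated at 0.571 between the groups, from 1 pair of differences. With the duplicate number as a replicate block, 909 genes (5.27%) passed the adjusted threshold in limma against 0 without it, among them Prkar2b (-0.47, adjusted p = 0.024), 1 of the 8 PKA genes other than Prkx. Prkx, at 1.20 there too, was chosen for its difference, so no p is given for it. In the pathway lists the block passed 13 of 109 genes, namely 5 other AGC kinases (Prkca, Rps6ka2, Akt2, Prkcz, Prkce), 3 phosphodiesterases (Pde1b, Pde4d and Pde1a), 2 G protein subunits (Gnai2 and Gnal), 2 PKA substrates (Stmn1, Ensa) and Hcn4. Of these 109, 92 were above background on every array, and the block passed 855 of all 9536 such genes. Leaving out each array gave 0 to 90 genes. Over these fits Prkx ran from 1.07 to 1.33, Prkar2b from -0.53 to -0.41, Prkaca from -0.08 to 0.12 (-0.08 without control duplicate 1) and Pkib from -0.06 to 0.04 (0.04 when duplicate 1 of either group was left out). The mean of its probe sets gave Pkib 0.15 in place of -0.01. Over all 15 alternatives the limma adjusted p ran from 0.024 to 0.54 for Prkar2b. The other 5 PKA genes kept their direction under all 15 and did not pass, but without PHF6 shRNA duplicate 2 Prkacb was at -0.08, Prkar1b at -0.07 and Pkig at -0.11. For the pathway lists, 15 of 112 alternative medians moved by more than the spread between duplicates. Pkib, Gnas, Akap5 and Prkcd are limited by signal near background.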
